A study of Mus musculus with 4 samples.

Results

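The genes described here are 34 genes of the histone acetylation machinery, out of 54838 gene identifiers in the count tables, measured by RNA sequencing in mouse embryonic stem cells. They were taken by symbol and fall into 4 roles: 11 acetyltransferases and acetyltransferase-like coactivators other than p300 and CBP, 11 deacetylases of classes I, II and IV, 6 corepressor proteins, and 6 bromodomain readers. All 34 had a row in each table and all 34 passed the low-count filter. The knock-in group was the line MLC460, in which CRISPR/Cas9 was used to join monomeric enhanced green fluorescent protein to the N-terminal end of the p300 made from its own locus. The WT group was E14 cells (E14Tg2a.4, strain 129/Ola) without the tag, and the knock-in libraries carry the same cell type and strain label. Each group had 2 libraries, described as biological replicates, and both lines were grown on gelatin in medium with serum and leukemia inhibitory factor. The knock-in group is a single derived line, so any difference from WT includes whatever else arose while that line was made. The counts cover whole genes and do not separate tagged from untagged Ep300 transcripts. The comparison asks whether transcripts of the other enzymes, cofactors and readers of histone acetylation stand at another level where p300 carries the tag.

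Histone acetyltransferases move an acetyl group from acetyl-CoA onto lysines of the histone tails, deacetylases remove it, and bromodomain proteins bind the acetylated lysine. p300 and its paralog CBP are the main acetyltransferases of active enhancers, and most other acetyltransferases work as the catalytic subunit of a large complex with its own targets. The class I deacetylases Hdac1, Hdac2 and Hdac3 act inside corepressor complexes built on SIN3, CoREST, NuRD and NCoR scaffolds. In embryonic stem cells the CoREST and NuRD complexes are known for damping enhancers when the cells differentiate.

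The libraries held 25266051 and 18946731 counts in genes for knock-in 1 and 2, and 26553998 and 21791128 for WT 1 and 2. The 34 genes took 0.498% to 0.515% of these counts in every library. All 8 embryonic stem cell markers examined were abundant, with summed levels of 6140 and 5770 CPM (counts scaled to the TMM library size) in knock-in and 5690 and 5620 CPM in WT libraries. Of the 11 endoderm markers 7 were tested and none passed. The 11 summed to 228 and 252 CPM in knock-in against 384 and 424 CPM in WT libraries. Almost all of it came from Lama1, Col4a1 and Col4a2, and Afp was at 0 in every library. Hnf4a was also lower, at 1.89 and 2.67 CPM in knock-in against 4.82 and 4.08 CPM in WT libraries. Gata4 overlapped between the lines, at 1.23 and 1.34 CPM in knock-in and 0.943 and 1.27 CPM in WT libraries, as did Gata6, Sox17 and Dab2. The 9 fibroblast markers, 6 of them tested and none passing, summed to 24.9 and 27.1 CPM in knock-in against 39.1 and 41.8 CPM in WT libraries, with Lum at 0 in every library. Trophoblast markers summed to 67.3 and 64.5 CPM in knock-in against 51.8 and 58.9 CPM in WT libraries. Most of it came from Tfap2c, at 47.4 and 44.7 CPM in knock-in and 34.1 and 34.9 CPM in WT libraries. Cdx2 and Elf5 were under 1 CPM in every library. None of the trophoblast, neural or mesoderm markers passed. Whether cells of these types were present, and their part in the values below, was not tested. Bulk RNA does not show which cells a transcript came from. Fewer cells of a type and less RNA per cell cannot be told apart in it. Ep300, the tagged gene, had 181 and 210 CPM in knock-in and 209 and 210 CPM in WT libraries (log2 fold change -0.10, SE 0.15, adjusted p = 0.804 in edgeR). WT 2 stood apart from the other 3 libraries: its difference from WT 1 followed the GC content of the transcripts (Spearman rho 0.71 across 13137 genes of at least 1 CPM), whereas the difference between the knock-in libraries did not (rho -0.048). Values without WT 2 are therefore given beside many of the results.

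None of the 34 transcripts passed the test for a difference between the lines. With edgeR's quasi-likelihood test and Benjamini-Hochberg adjustment over 15191 genes, 0 of 34 passed an adjusted p of 0.05, beside 10 genes, or 0.0658%, of all tested. The lowest adjusted p among the 34 was 0.408, that of Hdac7. At an unadjusted p under 0.05, 0 of 34 were higher in knock-in cells, beside 3.54% of all tested genes, and 3 were lower (Ncoa1, Hdac7 and Sin3b), beside 7.40% of all tested genes. DESeq2 also passed 0 of 34, beside 0.506% of the 16017 genes it tested. At an unadjusted p under 0.05 it gave 4 of 34 in either direction, beside at most 8.50% of the genes it tested. The 1361 genes behind 8.50% may include genes left without an adjusted p, which are not among the 16017. The share among tested genes can therefore be lower. The 95% intervals of the fold change lay within 2-fold in both directions for 31 of the 34 genes and within 1.5-fold for 22, so that for most of them a larger change is outside the interval. The exceptions to 2-fold were the low-abundance deacetylases Hdac7, Hdac9 and Hdac11. Among the 29 genes with a mean of at least 10 CPM, log2 fold changes ran from -0.42 to 0.43. The median over the 34 was 0.04, beside 0.00098 over all tested genes.

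The roles leaned different ways, although no member passed. Log2 fold changes were positive for 9 of 11 acetyltransferases (median 0.16) and 6 of 6 bromodomain readers (median 0.06), negative for 10 of 11 deacetylases (median -0.15), and positive for 4 of 6 corepressors (median 0.03), where 50.1% of all tested genes were positive. These directions moved with the libraries and the scaling used. Without WT 2, 9 acetyltransferases were still positive but only 6 deacetylases negative, with a median of -0.08. With scaling by DESeq2 size factors 8 deacetylases were negative, because Hdac3 and Hdac10 changed sign at values close to 0. With a correction for GC content 8 acetyltransferases were positive and 8 deacetylases negative, with medians of 0.15 and -0.04. Of the 6 corepressors 3 were positive without WT 2 and 2 with the GC correction, and of the 6 readers 5 were positive without WT 1, without WT 2 or without knock-in 2, and 4 with forward-strand counts. Both knock-in libraries lay above both WT libraries for 10 of the 34 genes, beside 23.4% of all tested genes, and below them for 8, beside 23.9%.

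**Figure D1:**
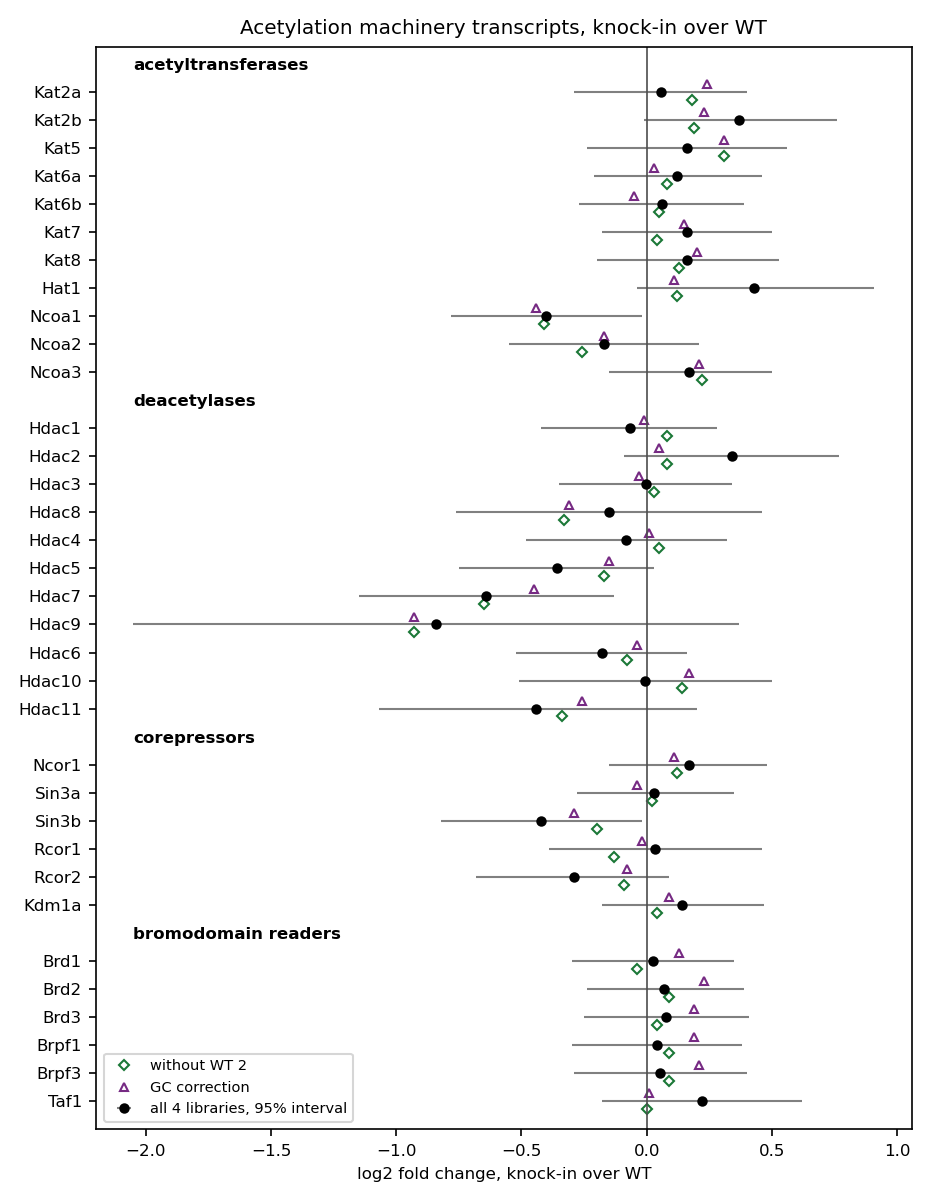
Log2 fold change (knock-in over WT) of each of the 34 genes, by role, from all 4 libraries (black points, bars are 95% intervals), with the GC correction (purple triangles) and without WT 2 (green diamonds). Hat1, Kat2b and Hdac2 lie above 0.3 with all libraries and below 0.2 without WT 2, while Ncoa1 and Hdac7 keep their place without WT 2. With the GC correction Hdac7 moves from -0.64 to -0.45.

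Levels within the cells spanned a wide range. Per length of annotated exon, Hat1 was the most abundant acetyltransferase transcript, with a mean of 144 RPKM (CPM divided by exon length in kilobases) in knock-in and 107 RPKM in WT cells. Hdac1 was the most abundant deacetylase transcript, at 117 RPKM in knock-in and 123 RPKM in WT cells. Its range over the libraries, 110 to 135 RPKM, overlapped that of Hat1, 82.4 to 150 RPKM, so these genes do not differ in rank beyond their spread. Rcor2 followed among all 34 genes with 79.9 RPKM in knock-in and 97.9 RPKM in WT cells. Kdm1a (58.9 and 53.4 RPKM in knock-in and WT cells), Sin3a (54.8 and 53.6), Kat7 (51.9 and 46.6) and Kat2a (50.3 and 48.4) came next, each overlapping its neighbours in range. At the low end stood Hdac9, with 7 and 10 counts in the knock-in libraries and 21 and 15 in the WT libraries, or 0.0281 and 0.0492 RPKM on average. The 5 genes with a mean under 10 CPM, Hdac7, Hdac8, Hdac9, Hdac10 and Hdac11, were all deacetylases. Exon length was taken over all annotated transcripts of a gene, so genes with long rarely used exons read low on this scale.

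**Figure D2:**
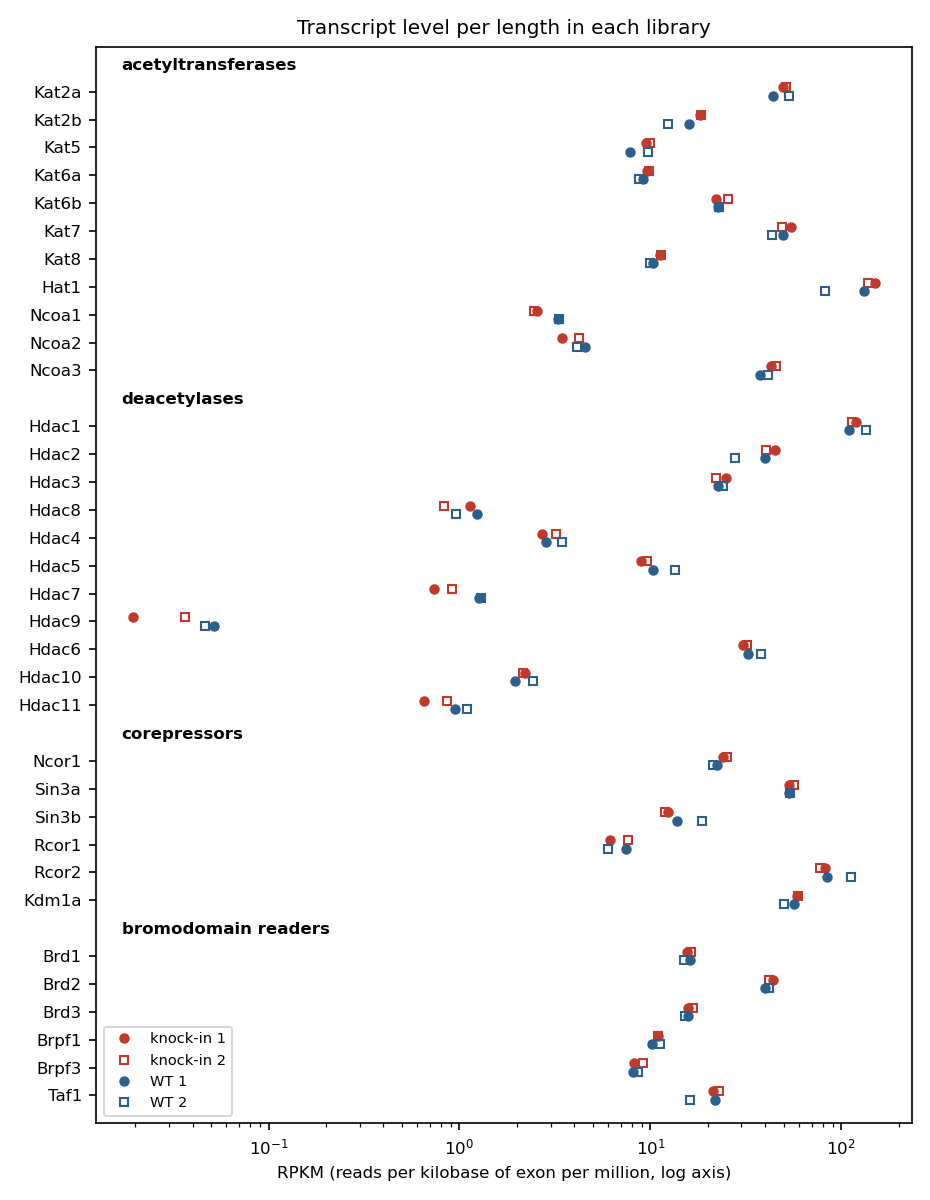
RPKM of each gene in each library on a log axis, knock-in libraries in red and WT libraries in blue, library 1 filled and library 2 open. Hat1 and Hdac1 lie above 80 RPKM in every library and Hdac9 lies below 0.1 RPKM.

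Among the acetyltransferases, Hat1 (ENSMUSG00000027018, GRCm38 chr2:71388958-71441622), which acetylates newly made histone H4 before it is built into chromatin, had the highest fold change. It had 434 and 398 CPM in knock-in libraries, against 379 and 238 CPM in WT libraries. Both knock-in values were above both WT values, but WT 1 stood close to the knock-in libraries and WT 2 far below. The log2 fold change was 0.43 (SE 0.21, 95% CI from -0.04 to 0.91, adjusted p = 0.474 in edgeR), and 0.12 without WT 2. With 41.0% GC its transcripts were the poorest in G and C of all 34 genes.

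Kat2b and Kat2a encode PCAF and GCN5, the alternative catalytic subunits of the SAGA and ATAC coactivator complexes. Kat2b (ENSMUSG00000000708, chr17:53566861-53672720) had 88.7 and 90 CPM in knock-in libraries, against 77.4 and 60.5 CPM in WT libraries, without overlap. Its log2 fold change was 0.37 (SE 0.17, 95% CI from -0.01 to 0.76, adjusted p = 0.459 in edgeR), and 0.19 without WT 2. Kat2a, the more abundant of the pair, had 172 and 179 CPM in knock-in libraries, against 153 and 184 CPM in WT libraries, with overlap (log2 fold change 0.06, SE 0.15). Without WT 2 the values of Kat2a and Kat2b were nearly equal, at 0.18 and 0.19.

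The MYST family, named for its founding members, has 5 genes here. Kat5, the catalytic subunit of the TIP60 complex, had 33.5 and 34.9 CPM in knock-in libraries and 27.3 and 33.9 CPM in WT libraries, and Kat8, the catalytic subunit of the MSL and NSL complexes, had 32.5 and 32.9 CPM in knock-in and 29.7 and 28.8 CPM in WT libraries. Kat7, which works with the same scaffold proteins as Kat6a and Kat6b, had 303 and 272 CPM in knock-in and 276 and 240 CPM in WT libraries. The log2 fold change of all 3 was 0.16 (SE 0.16 to 0.18 for Kat5 and Kat8 and 0.15 for Kat7). Without WT 2 these values parted, at 0.31 for Kat5, 0.13 for Kat8 and 0.04 for Kat7. That of Kat5, also 0.31 with the GC correction, was then above those of Hat1, Kat2b and Kat2a in both settings. Of its exon bases 12.1% are shared on the opposite strand, and the value of Kat5 was 0.21 from forward-strand and 0.12 from reverse-strand counts. That of Kat8, with 4.2% of exon bases shared, was 0.3 and -0.04 from these counts, so that its direction turned. Kat6a and Kat6b, also known as MOZ and MORF, stood on the log2 scale at 0.12 (SE 0.15) and 0.06 (SE 0.15). Of these 5 genes, Kat6a and Kat8 had knock-in values above both WT values.

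The p160 coactivators Ncoa1, Ncoa2 and Ncoa3 bind nuclear receptors and recruit p300 and CBP to them, and Ncoa3 is known in mouse embryonic stem cells as a coactivator of Esrrb. Ncoa1 (ENSMUSG00000020647, chr12:4247362-4477182) had 22.0 and 21 CPM in knock-in libraries, against 28.3 and 28.4 CPM in WT libraries. The groups did not overlap and each pair of libraries was close together. The log2 fold change was -0.40 (SE 0.17, 95% CI from -0.78 to -0.02, adjusted p = 0.443 in edgeR), and -0.40 without WT 1, -0.41 without WT 2 and -0.44 with the GC correction (adjusted p = 0.0945 in edgeR). Ncoa3 (ENSMUSG00000027678, chr2:165992636-166073242) had 340 and 360 CPM in knock-in libraries, against 297 and 324 CPM in WT libraries, a log2 difference of 0.17 (SE 0.14, adjusted p = 0.639 in edgeR) without overlap. Ncoa2 overlapped, at 54.0 and 66.3 CPM in knock-in and 70.9 and 64.3 CPM in WT libraries (log2 fold change -0.17, SE 0.17, and -0.26 without WT 2).

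Of the class I deacetylases, Hdac1 and Hdac2 are the paired catalytic subunits of the SIN3, NuRD and CoREST complexes. Hdac1 (ENSMUSG00000028800, chr4:129516104-129542713) had 413 and 393 CPM in knock-in libraries, against 379 and 466 CPM in WT libraries. The WT values lay on either side of the knock-in values, and the log2 fold change was -0.07 (SE 0.16, 95% CI from -0.42 to 0.28, adjusted p = 0.888 in edgeR). Hdac2 (ENSMUSG00000019777, chr10:36974544-37001889) had 200 and 181 CPM in knock-in libraries, against 178 and 123 CPM in WT libraries. These groups did not overlap, though knock-in 2 and WT 1 were nearly level, and the log2 fold change was 0.34 (SE 0.19, 95% CI from -0.09 to 0.77, adjusted p = 0.510 in edgeR). Without WT 2 both genes had a value of 0.08.

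The sequences of these paired genes are shown because their base composition, which WT 2 followed, differs even where they are most alike. Each line gives the 120 coding bases in which the pair shares the most bases, 5′ to 3′, from the GENCODE M21 transcript (GRCm38) with the longest coding part, and capitals mark G and C. The Hdac2 stretch covers coding bases 88 to 207 and the Hdac1 stretch coding bases 85 to 204, and the Kat2b stretch covers coding bases 1477 to 1596 and the Kat2a stretch coding bases 1528 to 1647.
Hdac2: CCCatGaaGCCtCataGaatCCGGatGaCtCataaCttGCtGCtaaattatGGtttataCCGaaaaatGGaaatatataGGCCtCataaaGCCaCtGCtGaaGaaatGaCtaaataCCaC
Hdac1: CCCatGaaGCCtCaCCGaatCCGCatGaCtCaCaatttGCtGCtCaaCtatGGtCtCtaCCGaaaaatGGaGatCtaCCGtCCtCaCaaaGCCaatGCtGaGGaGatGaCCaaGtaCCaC
Kat2b: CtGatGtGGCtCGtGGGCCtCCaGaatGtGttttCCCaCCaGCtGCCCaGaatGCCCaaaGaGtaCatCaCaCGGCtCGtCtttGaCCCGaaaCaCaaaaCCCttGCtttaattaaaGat
Kat2a: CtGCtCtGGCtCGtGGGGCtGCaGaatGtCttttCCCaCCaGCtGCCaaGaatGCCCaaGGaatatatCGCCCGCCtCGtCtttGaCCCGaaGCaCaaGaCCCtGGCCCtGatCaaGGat
In the first pair 100 of 120 bases were identical and 16 of the 20 differences were at the third codon position. G or C stood at 46 of the 120 bases in Hdac2 and 59 in Hdac1, and at 16 of 40 codon ends in Hdac2 and 27 of 40 in Hdac1. In the second pair 100 bases were again identical, 17 of the 20 differences were at the third codon position, and G or C stood at 59 bases in Kat2b and 68 in Kat2a. Over whole transcripts the GC content was 42.1% for Hdac2 and 51.2% for Hdac1, and 45.8% for Kat2b and 57.2% for Kat2a.

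Hdac3, the enzyme of the NCoR and SMRT complexes, had 101 and 89.0 CPM in knock-in libraries, against 92.1 and 97.9 CPM in WT libraries. Its log2 fold change was -0.0028 (SE 0.15, 95% CI from -0.35 to 0.34), with the sign turning under several settings. Hdac8, an X-linked class I enzyme known for deacetylating cohesin, was scarce, with 134 and 75 counts in knock-in and 164 and 102 counts in WT libraries, and overlapped between the lines (log2 fold change -0.15, SE 0.27, and -0.33 without WT 2).

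The class IIa deacetylases shuttle between nucleus and cytoplasm and act largely as signal-dependent scaffolds for corepressors. Hdac7 (ENSMUSG00000022475, chr15:97792664-97844502) had 4.97 and 6.16 CPM in knock-in libraries, against 8.57 and 8.72 CPM in WT libraries, from 121 and 115 counts in knock-in and 236 and 192 counts in WT libraries. The groups did not overlap. The log2 fold change was -0.64 (SE 0.23, 95% CI from -1.15 to -0.13, adjusted p = 0.408 in edgeR), -0.65 without WT 2 and -0.45 with the GC correction. Hdac5 had 78.7 and 84.6 CPM in knock-in libraries, against 90.6 and 119 CPM in WT libraries, a log2 difference of -0.36 (SE 0.17, adjusted p = 0.473 in edgeR) that was -0.17 without WT 2. Hdac9 also lay lower in both knock-in libraries (log2 fold change -0.84, SE 0.54), but with 7 to 21 counts per library. Hdac4 overlapped, with a log2 difference of -0.08 (SE 0.18) that was 0.05 without WT 2. Of its exon bases 22.4% are shared with genes on the opposite strand. Counts without regard to strand leave reads there unassigned as ambiguous, so its RPKM can read low.

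Hdac6, the X-linked class IIb enzyme best known as a tubulin deacetylase, had 177 and 186 CPM in knock-in libraries, against 189 and 222 CPM in WT libraries. The groups did not overlap, and the log2 fold change of -0.18 (SE 0.15, adjusted p = 0.645 in edgeR) was -0.08 without WT 2. Its class IIb relative Hdac10, a polyamine deacetylase, overlapped and had a log2 difference of -0.0055 (SE 0.22), which was 0.14 without WT 2. Hdac11, the only class IV enzyme, had 2.5 and 3.32 CPM in knock-in libraries, against 3.63 and 4.22 CPM in WT libraries (log2 fold change -0.44, SE 0.28, adjusted p = 0.553 in edgeR), and 17.9% of its exon bases are shared with genes on the opposite strand.

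**Figure D3:**
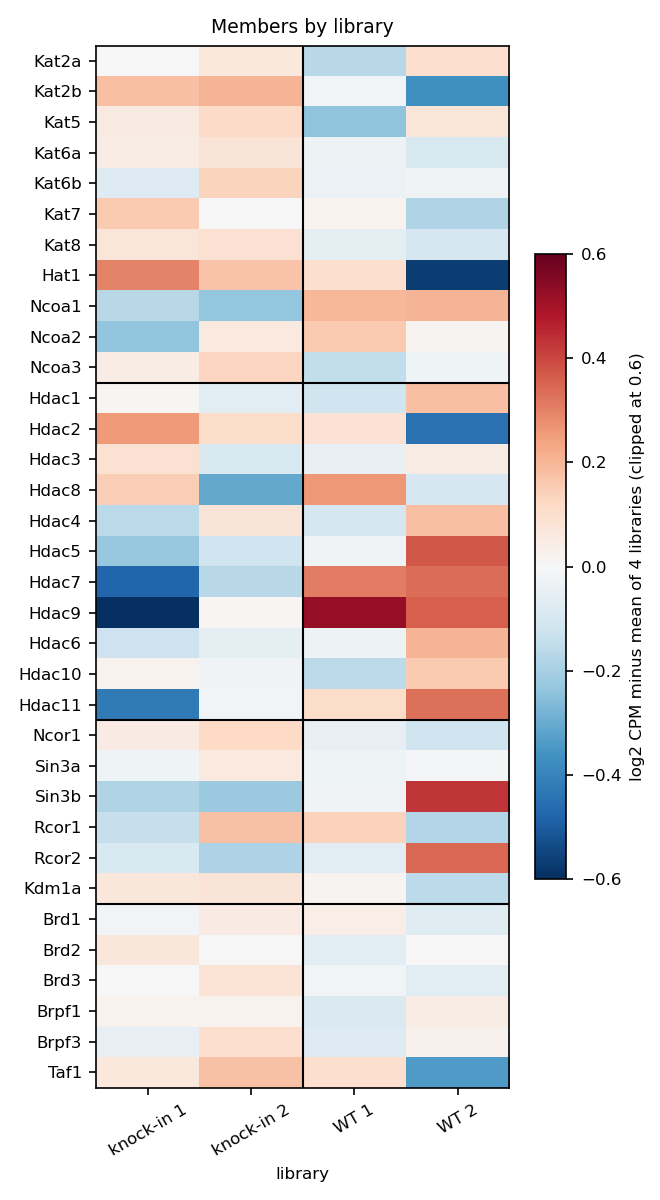
Log2 CPM of each gene minus its mean over the 4 libraries (colour, clipped at 0.6), knock-in libraries left and WT libraries right, with lines between the roles. WT 2 holds the lowest values of Hat1, Hdac2, Kat2b and Taf1 and the highest of Sin3b, Rcor2 and Hdac5.

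Among the corepressors, Sin3b (ENSMUSG00000031622, chr8:72723285-72758201), one of 2 scaffolds of the SIN3 deacetylase complex, had the lowest fold change. It had 90.5 and 88.0 CPM in knock-in libraries, against 101 and 138 CPM in WT libraries, without overlap. The log2 fold change was -0.42 (SE 0.18, 95% CI from -0.82 to -0.02, adjusted p = 0.445 in edgeR), and -0.20 without WT 2. Its paralog Sin3a, the more abundant scaffold per length, was level, with 287 and 304 CPM in knock-in and 287 and 290 CPM in WT libraries (log2 fold change 0.03, SE 0.14).

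Rcor2 (ENSMUSG00000024968, chr19:7267325-7275225), the CoREST scaffold that predominates in embryonic stem cells, had 261 and 244 CPM in knock-in libraries, against 265 and 353 CPM in WT libraries. The groups did not overlap, but WT 1 was nearly level with knock-in 1, and the log2 fold change of -0.29 (SE 0.17, adjusted p = 0.516 in edgeR) was -0.09 without WT 2. Rcor1 overlapped (log2 fold change 0.03, SE 0.19, and -0.13 without WT 2). Kdm1a, the lysine demethylase LSD1 that works in the CoREST complex, had 304 and 306 CPM in knock-in and 293 and 260 CPM in WT libraries, without overlap (log2 fold change 0.14, SE 0.14), a value that was 0.04 without WT 2. Ncor1, the scaffold that activates Hdac3, had 306 and 322 CPM in knock-in and 286 and 273 CPM in WT libraries, without overlap (log2 fold change 0.17, SE 0.14, adjusted p = 0.641 in edgeR).

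Among the bromodomain readers 5 of 6 had estimates close to 0. Brd2 and Brd3, of the BET family that ties acetylated chromatin to transcription, stood on the log2 scale at 0.07 (SE 0.14) and 0.08 (SE 0.14), with Brd2 at 343 and 328 CPM in knock-in and 312 and 327 CPM in WT libraries. Brd1, Brpf1 and Brpf3, the scaffolds of the MOZ, MORF and HBO1 acetyltransferase complexes, had values of 0.03, 0.04 and 0.05 (SE 0.14 to 0.15). Each of these 5 genes had a 95% interval within 1.5-fold of no difference in both directions, and without WT 2 their values ran from -0.04 (Brd1) to 0.09 (Brd2, Brpf1 and Brpf3). Taf1, the X-linked largest subunit of the general factor TFIID, had 182 and 197 CPM in knock-in libraries, against 187 and 138 CPM in WT libraries. Its log2 fold change was 0.22 (SE 0.18, adjusted p = 0.628 in edgeR) and 0.0 without WT 2. With the GC correction the 6 readers had a median of 0.19 and all stayed positive.

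Across the 34 genes the fold changes followed transcript GC content as long as WT 2 was used. The difference of WT 2 from WT 1 had a Spearman rho of 0.80 with GC content over the 34 genes, against 0.15 for the difference between the knock-in libraries. The log2 fold change had a rho of -0.48 with GC content from all libraries, -0.65 without WT 1 and -0.045 without WT 2. These are descriptions across genes, which share the same 4 libraries and are not independent replicates. The fit without WT 1 passed 11 of the 34 genes, 5 higher in knock-in cells (Kat2b, Kat7, Hat1, Hdac2 and Taf1), beside 19.0% of all tested genes, and 6 lower (Ncoa1, Hdac5, Hdac6, Hdac7, Sin3b and Rcor2), beside 13.1%. That share of 32.4% in both directions together was close to the background, and such a fit takes its spread from the knock-in pair alone and assumes that the lone WT library varies alike. The fit without WT 2 passed 0 of the 34 genes, beside 0.711% of all tested genes as higher and 3.68% as lower. With the GC correction 0 of 34 passed, beside 0.362% as higher and 1.56% as lower.

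**Figure D4:**
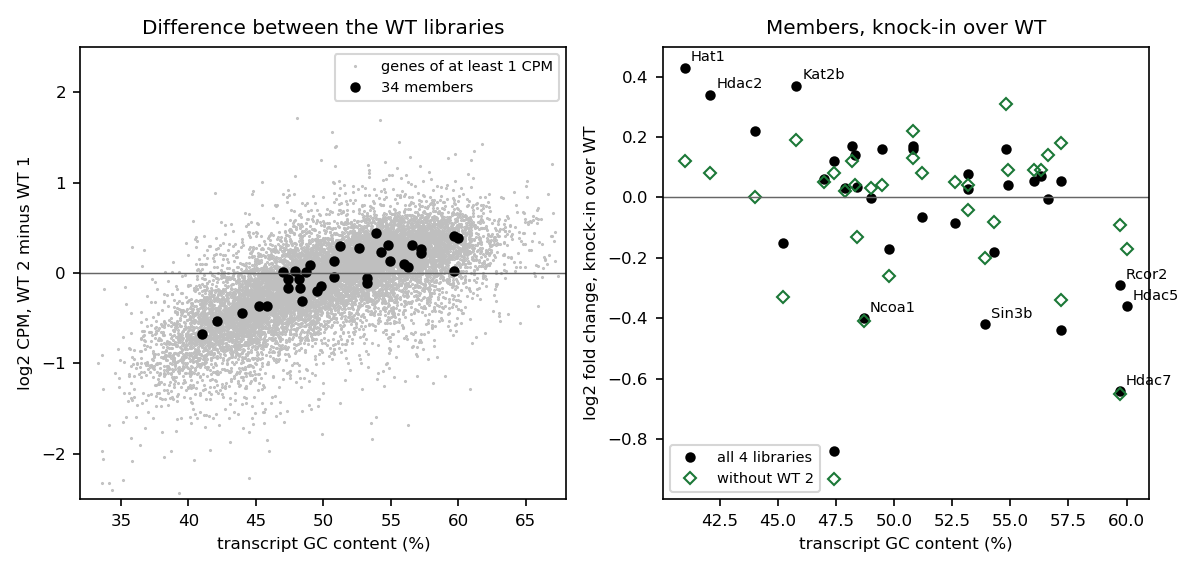
Left, log2 CPM of WT 2 minus WT 1 against transcript GC content (%), for all genes of at least 1 CPM (grey) and the 34 genes (black). Right, log2 fold change (knock-in over WT) of the 34 genes against GC content, from all 4 libraries (black) and without WT 2 (green). The downward slope of the black points, rho -0.48, is not seen in the green ones, rho -0.045.

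Ratios of related genes within a library do not depend on how libraries are scaled, and they were compared for 13 pairs. The difference largest in size was that of Ncoa3 to Ncoa1. Per length, Ncoa3 stood 16.8 and 18.6 times as high as Ncoa1 in knock-in libraries, against 11.4 and 12.4 times in WT libraries. The mean log2 ratio was 4.14 ± 0.10 in knock-in and 3.57 ± 0.08 in WT cells (SD, n = 2 each), a difference of 0.57 with an exact two-sided permutation p of 0.333 (0.963 adjusted over the 13 pairs), which is the smallest p that 2 against 2 libraries allow. Over the alternatives run, which include leaving out each library, this difference ranged from 0.50 to 0.66.

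In the ratios of Hdac2 to Hdac1, Kat2b to Kat2a and Rcor2 to Rcor1, WT 2 stood apart. Hdac2 stood at 0.374 and 0.355 times Hdac1 per length in knock-in libraries, against 0.363 in WT 1 and 0.204 in WT 2. Kat2b stood at 0.369 and 0.360 times Kat2a in knock-in libraries, against 0.362 in WT 1 and 0.235 in WT 2. In both pairs the 2 knock-in libraries and WT 1 were nearly equal and WT 2 alone was low. Rcor2 stood 13.5 and 10.1 times as high as Rcor1 in knock-in libraries, against 11.3 times in WT 1 and 18.7 times in WT 2. Without WT 2 the knock-in minus WT difference in log2 ratio was 0.01, 0.01 and 0.05 for the 3 pairs, against 0.42, 0.32 and -0.31 with it.

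The groups did not overlap for 3 further pairs, which made 4 of the 13. With 2 against 2 libraries, a share of 0.333 of all arrangements keeps the groups apart, so this count is near what arrangement alone gives. The Sin3b to Sin3a ratio was 0.231 and 0.212 in knock-in libraries, against 0.258 and 0.347 in WT libraries. For Hdac5 to Hdac4 the ratio was 3.29 and 3 in knock-in libraries, against 3.64 and 3.93 in WT libraries, and for Hdac10 to Hdac6 it was 0.0722 and 0.0670, against 0.0598 and 0.0635. The log2 differences were -0.43, -0.27 and 0.18, each with the same exact permutation p of 0.333, and that of Sin3b to Sin3a was -0.22 without WT 2. The difference of Hdac5 to Hdac4 was -0.16 with the GC correction. For Hdac10 to Hdac6 it was 0.50 from forward-strand and -0.20 from reverse-strand counts, so that its direction turned. Of the remaining pairs, Brd3 to Brd2 and Brpf3 to Brpf1 each had a log2 difference of 0.01.

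**Figure D5:**
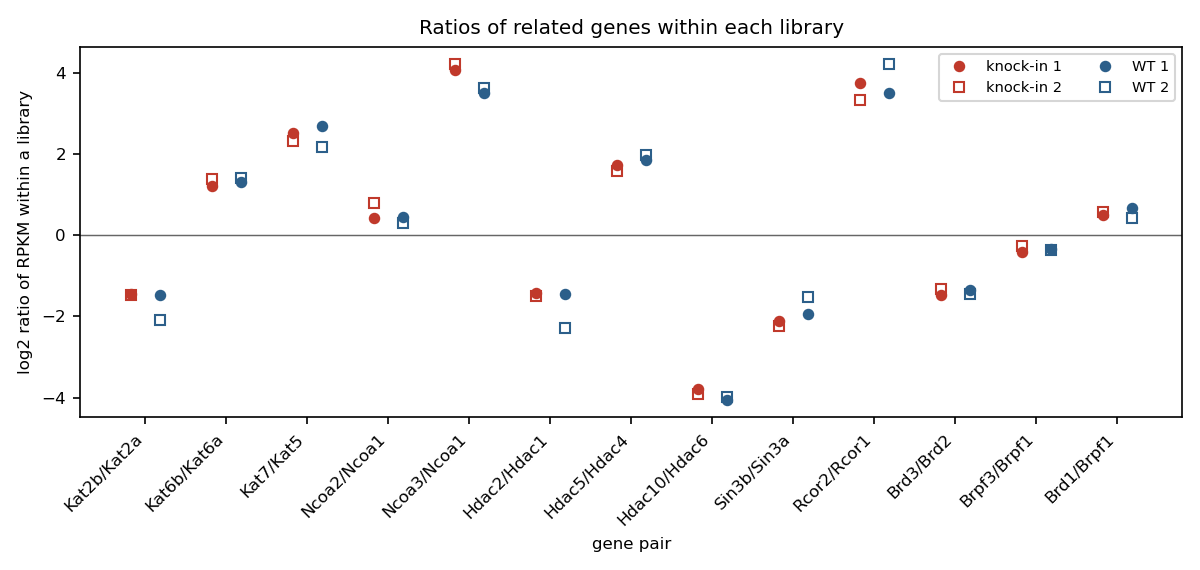
Log2 ratio of RPKM of 13 gene pairs within each library, knock-in libraries (red, left) and WT libraries (blue, right) of each pair, library 1 filled and library 2 open. WT 2 lies apart for Kat2b/Kat2a, Hdac2/Hdac1 and Rcor2/Rcor1, and both knock-in libraries lie above both WT libraries for Ncoa3/Ncoa1.

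Summed per length, the 11 acetyltransferase transcripts came to 374 and 366 RPKM in knock-in libraries, against 336 and 291 RPKM in WT libraries, and Hat1 alone made up most of the gap to WT 2. The 11 deacetylase transcripts came to 236 and 226 RPKM in knock-in libraries, against 224 and 248 RPKM in WT libraries. The ratio of the deacetylase to the acetyltransferase sum was 0.632 and 0.618 in knock-in libraries, against 0.666 in WT 1 and 0.852 in WT 2, lower in both knock-in libraries but by little relative to WT 1. By class, the class I sum overlapped, at 191 and 177 RPKM in knock-in and 174 and 188 RPKM in WT libraries. The class IIa sum was 12.4 and 13.8 RPKM in knock-in libraries, against 14.5 and 18.3 RPKM in WT libraries. Its largest part was Hdac5, at 8.96 and 9.63 RPKM in knock-in and 10.3 and 13.5 RPKM in WT libraries. The class IIb sum was 32.7 and 34 RPKM in knock-in libraries, against 34.5 and 40.5 RPKM in WT libraries.

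Proteins that work in the same complexes were read from 9 further lists of 102 genes, all of them tested. Of these, 0 passed in either direction, with all libraries or with the GC correction, and the median log2 fold change was 0.10 with all libraries. Both knock-in libraries lay above both WT libraries for 39 of the 102 genes, beside 23.4% of all tested genes, and below them for 5, beside 23.9%. The median of the 102 was 0.17 without WT 1 and 0.08 without WT 2. Trim24, a bromodomain protein, had a log2 fold change of 0.48 with all libraries (adjusted p = 0.331 in edgeR). It was 0.57 without WT 1 and 0.38 without WT 2. For the partner genes only effect sizes are given from these fits with a lone WT library, not which genes passed in them. With the GC correction and the replicate block together a single one of the 102 passed, beside 2.93% of all tested genes. It was Yeats4, a TIP60 complex subunit (log2 fold change 0.47, adjusted p = 0.0227 in edgeR). Trim24 and Yeats4 are named after their values were seen. By list, the median was 0.19 for the 16 TIP60 genes and for the 5 MOZ, MORF and HBO1 genes, 0.15 for the 10 MSL and NSL genes and 0.13 for the 20 other acetyl-lysine readers. It was 0.11 for the 8 CoREST genes and for the 4 NCoR and SMRT genes, 0.09 for the 13 SIN3 genes and 0.07 for the 8 NuRD genes. The 18 SAGA and ATAC genes had the only negative median, -0.02, with 10 of them negative. All these medians are from all libraries. With the GC correction and without WT 2 that of the SAGA and ATAC genes was 0.04 and 0.04. In the same order it was 0.12 and 0.17 for the TIP60 genes and 0.06 and 0.02 for the other readers. For the CoREST genes it was 0.11 and 0.04, and for the NuRD genes 0.15 and 0.10. Among the 94 genes of at least 10 CPM, Atad2, a bromodomain ATPase, had the highest log2 fold change (0.55, SE 0.22, adjusted p = 0.435 in edgeR), and Dpf1, a neural subunit of the BAF remodeler, the lowest (-0.34, SE 0.20, adjusted p = 0.523 in edgeR). Atad2 had a value of 0.22 without WT 2, and Dpf1 a value of -0.12.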

How the data were processed

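RNA was harvested with Trizol and sequenced after library construction with a TruSeq kit that is not named as stranded, per the labels' protocols. The authors deposited raw read counts per gene, 1 table per library. Tools named in the submitters' processing notes are Trim Galore and STAR 2.5.3a, with the build GRCm38 (mm10), and no source used here gives the annotation release. Counts without regard to strand were used, since the reverse column held 50.2% to 50.5% of the stranded counts. The 4 summary rows, 15.8% to 18.0% of reads per library, stayed out of library sizes and tests. Of 54838 identifiers, 54809 matched GENCODE M21, which gave symbols, coordinates and exon lengths.

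Counts were tested with edgeR 4.0.16 in R 4.3.3 (TMM, filterByExpr with a minimum count of 10, quasi-likelihood F test, genotype alone, threshold 0.05). SE is the absolute log2 fold change over the square root of F. The GC correction was an offset from a natural spline (5 degrees of freedom) of each library's log2 deviation on transcript GC content, followed by TMM. Other settings were DESeq2 1.42.0 and its size factors, no filter, each library left out, a replicate block and single-strand counts. The procedure was tested on simulated data. The members, lists and settings were chosen with earlier results of these data known. All 34 members are named, with any complex partner past the threshold in the fit of all libraries or with the GC correction (there was none) and the highest and lowest of them at 10 CPM or more. The intervals and tests cover the spread between 2 libraries per line.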

Additional observations from a re-analysis of the deposited data

How the results depend on the processing

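The count of members past the threshold stayed at 0 under every alternative except the fit without WT 1, so over the fits without 1 library it ran from 0 to 11. The count over all genes, 10 with all libraries, was 354 without the low-count filter, 81 with the DESeq2 test, 292 with the GC correction, and from 16 to 5015 without 1 library (5015 without WT 1, 711 without WT 2, 17 without knock-in 1 and 16 without knock-in 2). With the replicate number as a block it was 197, and 445 with the block and the GC correction. Same-numbered libraries deviated from their group means with a correlation of -0.116, and a crossed pairing, added after the data were seen, gave 509 genes and 0 members. The cause of these shifts was not tested. The count of gene pairs whose groups do not overlap, 4, was 11 without WT 1, 6 without WT 2, 8 without knock-in 1 and 9 without knock-in 2. Groups of fewer libraries overlap less often, so these counts are not comparable with 4. They also differed by the library left out.

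Of 406 member values under an alternative, 38 turned direction, over 14 genes whose log2 fold change was at most 0.16 in size with all libraries. With DESeq2 size factors these were Hdac3 (0.0041) and Hdac10 (0.00055), and with the DESeq2 test Hdac3 (0.0052) and Hdac10 (0.00016). The GC correction gave Kat6b -0.051, Sin3a -0.041, Rcor1 -0.015, Hdac4 0.014 and Hdac10 0.17, and with the replicate block added -0.050, -0.039, -0.019, 0.014 and 0.17. The replicate block alone gave Hdac10 0.0017. Forward-strand counts gave Brpf1 -0.0039, Rcor1 -0.032, Brd1 -0.036 and Hdac10 0.32, and reverse-strand counts Brd3 -0.0074 and Kat8 -0.044. Over the fits without 1 library the turned values ranged as follows: Kat2a -0.071 to 0.18, Hdac8 -0.42 to 0.057, Brpf1 -0.021 to 0.094, Hdac1 -0.21 to 0.076, Hdac3 -0.11 to 0.086, Hdac4 -0.22 to 0.047, Hdac10 -0.15 to 0.14, Rcor1 -0.13 to 0.2, Brd1 -0.04 to 0.083, Kat6b -0.045 to 0.14, Sin3a -0.0072 to 0.053 and Brpf3 -0.018 to 0.11. The median over the members stayed positive in every alternative run. Hdac9 was too scarce for the single-strand counts. Depth limits Hdac7 to Hdac11, whose intervals are the widest.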
